A study of Mus musculus with 16 samples.

Results

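The expression of 10 genes of Wnt signalling was followed in the livers of female mice: the ligands Wnt5a, Wnt2 and Wnt9b, the R-spondin Rspo3, the Frizzled receptors Fzd4, Fzd5, Fzd7 and Fzd8, and the co-receptors Lrp5 and Lrp6. They were taken as the rows of the deposited expression table whose gene symbol equals one of these names, which gave 10 of 30199 genes. Each of the 10 passed the filter on low values used for testing. The study asked how loss of 1 allele of Ncoa5, of Tip30 or of both alters the female liver. Messenger RNA was sequenced from 16 livers at 5 months of age, 1 library per mouse and 4 mice per genotype: Ncoa5+/-Tip30+/- (the double heterozygote), Ncoa5+/-, Tip30+/- and wild type. The protein of Ncoa5 modulates nuclear receptors, and Tip30 is listed in the table under the symbol Htatip2. As labelled, every mouse keeps an intact allele of both genes. The labels name neither the strain nor the exons that were deleted. Nothing in the labels says whether mice of a genotype were littermates, so p-values measure only the spread between these mice.

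Wnt proteins are lipid-modified secreted ligands that bind Frizzled receptors, and with the co-receptors Lrp5 and Lrp6 they stabilise beta-catenin. R-spondins bind Lgr receptors and remove the ligases Znrf3 and Rnf43, which otherwise clear Frizzleds from the cell surface. In the liver, Wnt2 and Wnt9b come chiefly from endothelial cells around the central vein, which also make Rspo3. Neighbouring hepatocytes answer with pericentral genes such as Glul. Wnt5a acts largely through routes that do not use beta-catenin.

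Libraries held 24740706 to 37939978 reads assigned to genes, and 21686 to 24142 genes had at least 1 read. Htatip2 checked the Tip30 labels: it averaged 977 ± 104 normalized counts in Ncoa5+/-Tip30+/- livers and 781 ± 139 in Tip30+/- livers, against 2467 ± 358 in Ncoa5+/- livers and 2058 ± 179 in wild type (SD, n = 4 each). Ncoa5 itself averaged 391 ± 23.5, 381 ± 35.1, 408 ± 29.7 and 426 ± 42.1 normalized counts in the same order of genotypes, which did not separate the groups, so the Ncoa5 genotype rests on the labels. The 8 hepatocyte markers took 7.56% to 10.7% of all counts. The libraries of 4 mice, Ncoa5+/- 1 and 4 and wild type 1 and 2, held 8.77 to 26.3 normalized counts of Zhx2, against 167 to 438 in the other 12. All 4 mice lacked the Tip30 deletion, so comparisons of mice with and without it are partly confounded with the Zhx2 level. For the results described at length, values without those 4 livers follow. In whole liver, fewer cells of a type and less RNA per cell cannot be told apart.

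Averaged over both backgrounds of the other gene, Wnt5a fell with each deletion, and it was lowest in the double heterozygotes. Neither averaged fall passed without the 4 livers low in Zhx2 (limma adjusted p = 0.0658 for Ncoa5 and 0.567 for Tip30). With the Ncoa5 deletion Fzd8 and Fzd7 fell and Rspo3 rose, and the other 6 genes passed in none of the comparisons made by limma on these values. Of these 6, Fzd4 passed under some alternative settings. Without the 4 livers low in Zhx2, only Fzd8 kept its call with the Ncoa5 deletion. Differences are log2 changes from limma on normalized counts plus 1, given with their SE, with 15263 genes tested and an adjusted p under 0.05 required to pass. Each deletion was also tested over 8 mice with it against 8 without it, as the mean of its effect in both backgrounds of the other gene. With the Ncoa5 deletion 4 of the 10 genes passed, 1 higher and 3 lower, where 7.89% of all tested genes passed, 3.94% higher and 3.95% lower. With the Tip30 deletion 1 of the 10 passed, where 0.131% of all genes passed. The difference between the effects of the deletions was not tested. The median change of the 10 genes with the Ncoa5 deletion was -0.35, beside -0.01 over all tested genes. The 10 genes were chosen with earlier results of these data known, so these counts and medians only describe them.

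**Figure D1:**
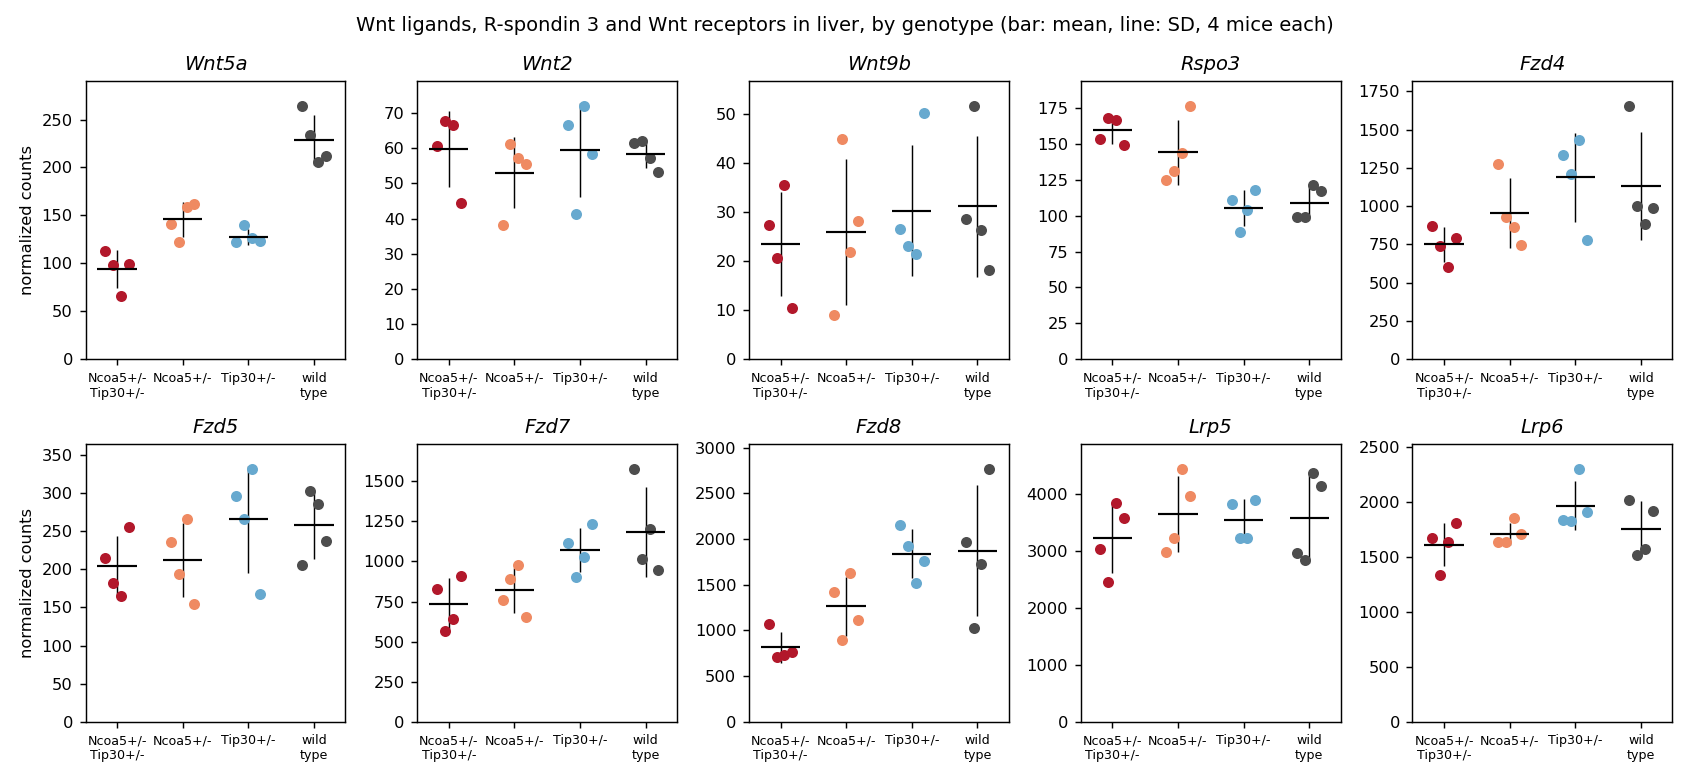
Normalized counts of the 10 genes (vertical axes, linear from 0) in each of 16 livers, by genotype. Points are mice, bars are means and lines are SD over 4 mice. The 4 wild-type points of Wnt5a, at 206 to 264, sit above all 12 others, and the 8 Rspo3 points with the Ncoa5 deletion, at 125 to 176, sit above the 8 without it.

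Wnt5a (ENSMUSG00000021994; GRCm38 chromosome 14, 28504750 to 28527448, plus strand) had 113, 97.8, 65.9 and 99.0 normalized counts in Ncoa5+/-Tip30+/- livers. It had 141, 122, 158 and 162 in Ncoa5+/- livers and 122, 140, 126 and 123 in Tip30+/- livers. Wild-type livers had 264, 233, 206 and 212. Every liver with a deletion lay below every wild-type liver, and every double heterozygote lay below every single heterozygote. The means were 94.0 ± 19.98, 146 ± 18.2 and 128 ± 8.17 in the 3 heterozygous groups, which are 41.0%, 63.7% and 55.8% of the wild-type mean of 229 ± 26.1 (SD, n = 4 each).

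In double heterozygotes against wild type Wnt5a fell by 1.30 ± 0.16 on the log2 scale (95% interval -1.64 to -0.95, limma adjusted p = 0.000313), at place 17 of 15263 genes by p. In that comparison 3 of the 10 genes passed, where 2.67% of all genes did. Wnt5a differed from wild type by -0.65 ± 0.16 in Ncoa5+/- livers (limma adjusted p = 0.0936) and by -0.83 ± 0.16 in Tip30+/- livers (limma adjusted p = 0.194). None of the 10 genes passed in either single heterozygote, where 0.557% and 0.0131% of all genes passed. Double heterozygotes differed from Ncoa5+/- livers by -0.65 ± 0.16 (limma adjusted p = 0.392), where none of the 10 genes and 0.0197% of all genes passed, and from Tip30+/- livers by -0.46 ± 0.16 (limma adjusted p = 0.108). For Wnt5a the groups did not overlap in any of these 5 comparisons. That fixes the exact permutation p, 2-sided over 70 arrangements, at 0.0286, the smallest that 4 mice against 4 can give. This p adds nothing to the separation, and Rspo3, Fzd4, Fzd7, Fzd8 and Lrp6 also reached it in some comparisons. Of all genes, 6% lay below wild type without overlap in double heterozygotes, 2.42% in Ncoa5+/- and 2.44% in Tip30+/- livers, comparisons that share the wild-type mice. Double heterozygotes lay below Ncoa5+/- livers without overlap for 2.12% of all genes, and below Tip30+/- livers for 9.05%.

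Over 8 mice against 8, Wnt5a fell with the Ncoa5 deletion by 0.56 ± 0.12 (95% interval -0.80 to -0.31, limma adjusted p = 0.00879) and with the Tip30 deletion by 0.74 ± 0.12 (95% interval -0.98 to -0.50, limma adjusted p = 0.00893). It stood at place 10 of 15263 genes for Tip30. The effect of both deletions together differed from the sum of the single effects by 0.19 ± 0.23 (95% interval -0.30 to 0.67, limma adjusted p = 0.956), and a departure from adding up on the log2 scale was not detectable. Without the 4 livers low in Zhx2 the double heterozygote difference was -1.17 (limma adjusted p = 0.0229), the Ncoa5 effect -0.52 (0.0658) and the Tip30 effect -0.65 (0.567). An opposite-strand gene, Gm2670, shares 4.58% of the Wnt5a exon bases and averaged 0.766 normalized counts.

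**Figure D2:**
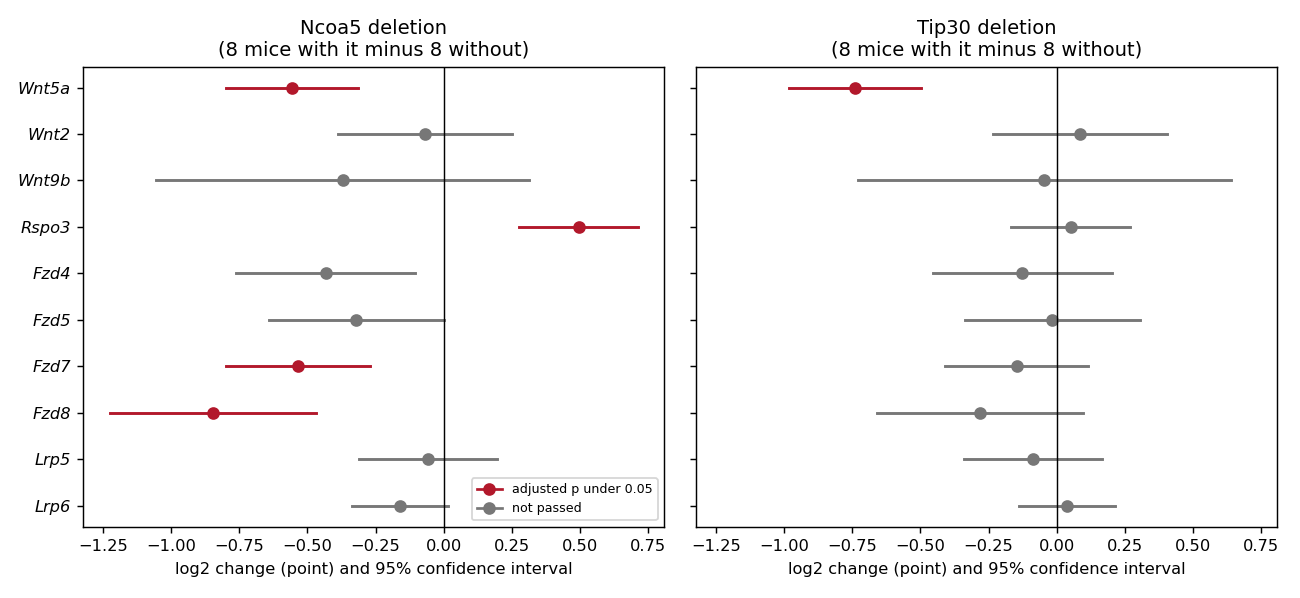
Log2 change of each of the 10 genes (horizontal axis) with the Ncoa5 deletion (left) and with the Tip30 deletion (right), 8 mice with it minus 8 without. Points are limma estimates, lines are 95% intervals and red marks an adjusted p under 0.05. Wnt5a is red in both panels, at -0.56 and -0.74, while Rspo3, Fzd7 and Fzd8 are red for Ncoa5 alone.

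The ligands of the central vein endothelium did not pass in any comparison. Wnt2 (ENSMUSG00000010797; chromosome 6, 17988940 to 18030585, minus strand) averaged 59.9 ± 10.8 normalized counts in Ncoa5+/-Tip30+/-, 53.0 ± 10.1 in Ncoa5+/-, 59.5 ± 13.4 in Tip30+/- and 58.5 ± 4.06 in wild-type livers. Its change was -0.07 with the Ncoa5 deletion (95% interval -0.39 to 0.25, limma adjusted p = 0.813) and 0.09 with the Tip30 deletion (95% interval -0.23 to 0.41, limma adjusted p = 0.868). Wnt9b (ENSMUSG00000018486; chromosome 11, 103727364 to 103749821, minus strand) averaged 23.5 ± 10.7, 25.98 ± 14.9, 30.3 ± 13.4 and 31.1 ± 14.3 in the same order. At these low counts its 95% intervals were wide, -1.06 to 0.31 for the Ncoa5 deletion and -0.73 to 0.64 for the Tip30 deletion. The Ncoa5 change of Wnt9b was -0.37, and it turned to 0.06 without the 4 livers low in Zhx2 (limma adjusted p = 0.943), and its difference of Ncoa5+/- from wild type was then 0.51 in place of -0.35. That of Wnt2 with the Ncoa5 deletion turned to 0.06.

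Rspo3 (ENSMUSG00000019880; chromosome 10, 29452416 to 29535867, minus strand), which raises the amount of Frizzled at the surface, had 154, 168, 166 and 149.5 normalized counts in Ncoa5+/-Tip30+/- livers and 125, 131, 144 and 176 in Ncoa5+/- livers. Tip30+/- livers had 111, 88.4, 104 and 118, and wild-type livers had 99.2, 98.9, 122 and 117. The 8 livers with the Ncoa5 deletion all lay above the 8 without it. Such a separation upwards was seen for 0.786% of all genes. Rspo3 rose by 0.50 ± 0.10 with the Ncoa5 deletion (95% interval 0.28 to 0.71, limma adjusted p = 0.00916). With the Tip30 deletion it differed by 0.05 ± 0.10 (95% interval -0.17 to 0.27, limma adjusted p = 0.888).

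Double heterozygotes had more Rspo3 than Tip30+/- livers, by 0.60 ± 0.15 (limma adjusted p = 0.0352), and 2 of the 10 genes passed there, where 3.07% of all genes did. Against wild type the difference was 0.55 ± 0.15 in double heterozygotes (limma adjusted p = 0.0542) and 0.39 ± 0.15 in Ncoa5+/- livers (limma adjusted p = 0.341), both without overlap, as for 4.7% and 3.25% of all genes. With the mouse tag (under 4300 or not) as a covariate the double heterozygote difference passed (limma adjusted p = 0.0338), as it did by DESeq2 (adjusted p = 0.0133), with the filter at 50 (limma adjusted p = 0.0477) and without wild type 3 (0.0396). Rspo3 also lay above Tip30+/- in every double heterozygote, as 7.1% of all genes did. The call against Tip30+/- was lost when any single mouse of either group but Ncoa5+/-Tip30+/- 4 was left out, with an adjusted p of up to 0.122 without Ncoa5+/-Tip30+/- 2. Without the 4 livers low in Zhx2 the Ncoa5 effect was 0.40 (limma adjusted p = 0.0745), and the difference from wild type was 0.41 in double heterozygotes (0.236) and 0.20 in Ncoa5+/- livers (0.800). Gm48159, on the opposite strand, shares 13.1% of the Rspo3 exon bases, and no value for its level was available.

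Of the Frizzleds, which bind Wnts, Fzd8 (ENSMUSG00000036904; chromosome 18, 9212163 to 9218136, plus strand) fell most. It had 1071, 705, 731 and 761 normalized counts in Ncoa5+/-Tip30+/- livers and 1418, 899, 1624 and 1113 in Ncoa5+/- livers. Tip30+/- livers had 2157, 1922, 1518 and 1759, and wild-type livers had 1967, 1024, 1731 and 2766. The double heterozygotes lay below every Tip30+/- liver, as for 9.05% of all genes, while wild type spanned a wide range that reached down to them. Fzd8 fell with the Ncoa5 deletion by 0.85 ± 0.18 (95% interval -1.23 to -0.47, limma adjusted p = 0.0111). It fell in double heterozygotes by 1.13 ± 0.25 against wild type (limma adjusted p = 0.0287) and by 1.18 ± 0.25 against Tip30+/- (limma adjusted p = 0.0243).

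Fzd8 was the member whose double deletion departed most from the sum of single effects, by -0.66 ± 0.36 (95% interval -1.42 to 0.09, limma adjusted p = 0.950). None of the 10 genes and 0% of all genes passed this interaction test by limma, with 650 genes at an unadjusted p under 0.05, and edgeR called 0 and DESeq2 called 1. Without the 4 livers low in Zhx2 the Ncoa5 effect on Fzd8 was -1.02 (limma adjusted p = 0.0115). The call against wild type was lost without Ncoa5+/-Tip30+/- 2 (limma adjusted p = 0.111) or 3 (0.0700), or without wild type 1 (0.0903) or 4 (0.0695). The call against Tip30+/- was lost without Ncoa5+/-Tip30+/- 2 (0.0996) or 3 (0.0657), or without Tip30+/- 1 (0.0614), 2 (0.0649) or 4 (0.0636).

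Fzd7 (ENSMUSG00000041075; chromosome 1, 59482424 to 59486955, plus strand) had 826, 566, 643 and 909 normalized counts in Ncoa5+/-Tip30+/- livers and 763, 889, 978 and 656 in Ncoa5+/- livers. Tip30+/- livers had 1114, 903, 1031 and 1231, and wild-type livers had 1577, 1013, 1201 and 946. Double heterozygotes lay below wild type without overlap, as for 6% of all genes. Fzd7 fell with the Ncoa5 deletion by 0.53 ± 0.13 (95% interval -0.80 to -0.27, limma adjusted p = 0.0178) and in double heterozygotes against wild type by 0.68 ± 0.18 (limma adjusted p = 0.0492). The call against wild type was lost when any single mouse but Ncoa5+/-Tip30+/- 4 was left out, with an adjusted p of up to 0.178 without Ncoa5+/-Tip30+/- 2. Without the 4 livers low in Zhx2 the Ncoa5 effect on Fzd7 was -0.37 (limma adjusted p = 0.124) and the difference from wild type -0.56 (0.164).

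Fzd4 (ENSMUSG00000049791; chromosome 7, 89404355 to 89413134, plus strand), a receptor for norrin in vessels, had 872, 736, 601 and 789.98 normalized counts in Ncoa5+/-Tip30+/- livers and 1274, 931, 862 and 747 in Ncoa5+/- livers. Tip30+/- livers had 1334, 1212, 1433 and 775, and wild-type livers had 1652, 1002, 881 and 987. Double heterozygotes lay below wild type without overlap, as for 6% of all genes, at a difference of -0.56 ± 0.22 that did not pass (limma adjusted p = 0.152). That difference was -0.33 without the 4 livers low in Zhx2 (limma adjusted p = 0.444). Its change with the Ncoa5 deletion was -0.43 ± 0.16 (limma adjusted p = 0.0924). This change passed with the mouse tag covariate (-0.38, limma adjusted p = 0.0359), by DESeq2 (adjusted p = 0.0475) and without Tip30+/- 4 (limma adjusted p = 0.0416), and Fzd4 also passed against Tip30+/- livers with the tag covariate (-0.53, limma adjusted p = 0.0487). Fzd4 lies 39.6 Mb from Htatip2 on the same chromosome. Fzd5 (ENSMUSG00000045005; chromosome 1, 64730558 to 64737751, minus strand) ranged over 165 to 256 normalized counts in double heterozygotes and 206 to 303 in wild type, with a change of -0.32 ± 0.15 for Ncoa5 (limma adjusted p = 0.192). Gm38058, on the opposite strand, shares 17.8% of the Fzd5 exon bases and averaged 0.183 normalized counts.

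Neither co-receptor passed in a comparison. Lrp5 (ENSMUSG00000024913; chromosome 19, 3584828 to 3686564, minus strand) ranged over 2453 to 3853 normalized counts in double heterozygotes and 2841 to 4365 in wild type, with a change of -0.06 for Ncoa5 (95% interval -0.31 to 0.20) and -0.09 for Tip30 (95% interval -0.34 to 0.17). Lrp6 (ENSMUSG00000030201; chromosome 6, 134446476 to 134566965, minus strand) ranged over 1339 to 1805 in double heterozygotes and 1515 to 2022 in wild type, with changes of -0.16 (95% interval -0.33 to 0.02) and 0.04 (95% interval -0.14 to 0.21). The double heterozygotes lay below all Tip30+/- livers for Lrp6, whose range was 1822 to 2299.6, at -0.29 ± 0.12 (limma adjusted p = 0.157). Downward separation of these groups was seen for 9.05% of all genes.

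Per kb of exon the 10 genes fell into 3 tiers in wild type. Lrp5 at 368 normalized counts per kb, Fzd8 at 313, Fzd7 at 261, Fzd4 at 168 and Lrp6 at 128 stood highest. Fzd5 at 37.3, Rspo3 at 35.3, Wnt5a at 29.3 and Wnt2 at 25.9 followed, and Wnt9b at 6.89 stood lowest. Neighbours in this order had overlapping ranges over the 4 wild-type mice, except at the steps from Lrp6 to Fzd5 and from Wnt2 to Wnt9b.

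**Figure D3:**
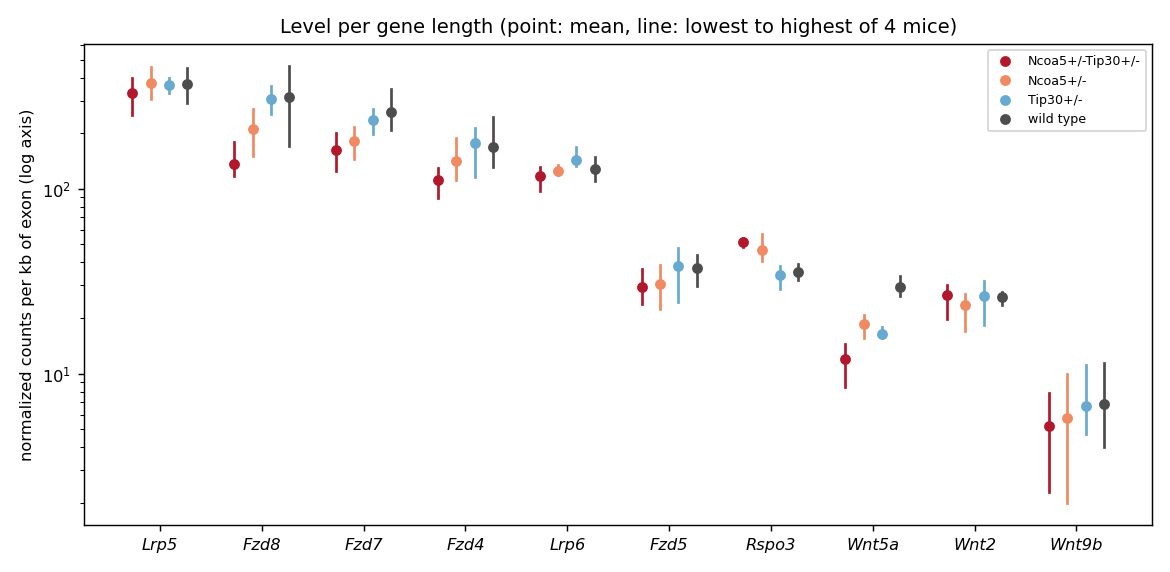
Normalized counts per kb of exon (log axis) for each gene and genotype, ordered by the wild-type mean. Points are means and lines run from the lowest to the highest of 4 mice. The receptors Lrp5, Fzd8, Fzd7, Fzd4 and Lrp6 are at 128 to 368 in wild type, and Fzd5, Rspo3 and the Wnts lie at 6.89 to 37.3.

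Around these genes the rest of the pathway was examined by role, with the Ncoa5 deletion over 8 mice against 8, where 7.89% of all tested genes passed. Of 4 other Wnt ligands tested none passed. Of 2 secretion genes Porcn, the enzyme that adds the lipid to Wnts, fell by 0.59 ± 0.13, averaging 108 ± 17.7 normalized counts with the deletion and 164 ± 27.2 without it (SD, n = 8 each; limma adjusted p = 0.0106). Of 5 other R-spondins and their receptors Lgr4, an R-spondin receptor, fell by 0.38 ± 0.10, averaging 1239 ± 169 and 1622 ± 269 (limma adjusted p = 0.0334). None of 7 other Frizzleds and alternative receptors, 5 inhibitors or 20 intracellular genes passed. Fzd2, a further Frizzled, had a change of 0.75 (limma adjusted p = 0.0515), and it rose in double heterozygotes against Tip30+/- livers by 1.26 ± 0.32 (limma adjusted p = 0.0433), averaging 15.2 ± 0.924 and 6.03 ± 2.49 normalized counts. With the 4 livers low in Zhx2 left out Porcn passed (-0.67, limma adjusted p = 0.0308), Lgr4 did not (-0.44, 0.0566), and nor did Fzd2 against Tip30+/- (1.26, 0.0664).

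Of 18 hepatocyte targets of beta-catenin 2 passed as lower and none as higher with the Ncoa5 deletion, where 7.89% of all tested genes passed. The changes were mixed, 6 positive and 12 negative (median -0.18). Axin2, another of the 18 targets, averaged 248 ± 47.2, 219 ± 69.7, 210 ± 64.4 and 151 ± 42.4 normalized counts in Ncoa5+/-Tip30+/-, Ncoa5+/-, Tip30+/- and wild-type livers. It passed in none of the comparisons by limma. With the mouse tag covariate 4 targets fell and 1, Tcf7, rose, where 12.7% of all genes passed. Glul, glutamine synthetase of the pericentral hepatocytes, fell by 0.44 ± 0.11, averaging 17177 ± 4034 with the deletion and 23041 ± 3539 without it (limma adjusted p = 0.0241). Slc1a2, a glutamate transporter, fell by 0.69 ± 0.17, averaging 1616 ± 320 and 2662 ± 716 (limma adjusted p = 0.0212). Against wild type, Glul fell in double heterozygotes by 0.61 (limma adjusted p = 0.0445), the only pathway gene outside the 10 to pass there. Against Tip30+/- livers, double heterozygotes averaged 14593 ± 1127 normalized counts of Glul, against 23591 ± 3422, and 1548 ± 448 of Slc1a2, against 3082 ± 316 (SD, n = 4 each). Both passed, at -0.68 ± 0.16 (limma adjusted p = 0.0284) and -1.04 ± 0.23 (limma adjusted p = 0.0292). Both targets passed with the Ncoa5 deletion when the 4 livers low in Zhx2 were left out, Glul at -0.58 (limma adjusted p = 0.0219) and Slc1a2 at -0.88 (0.0116). In that fit 4 of the 18 targets fell, where 3.94% of all genes passed. Glul against wild type was then at -0.69 (limma adjusted p = 0.0822). With the Tip30 deletion none of the genes of these lists passed.

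**Figure D4:**
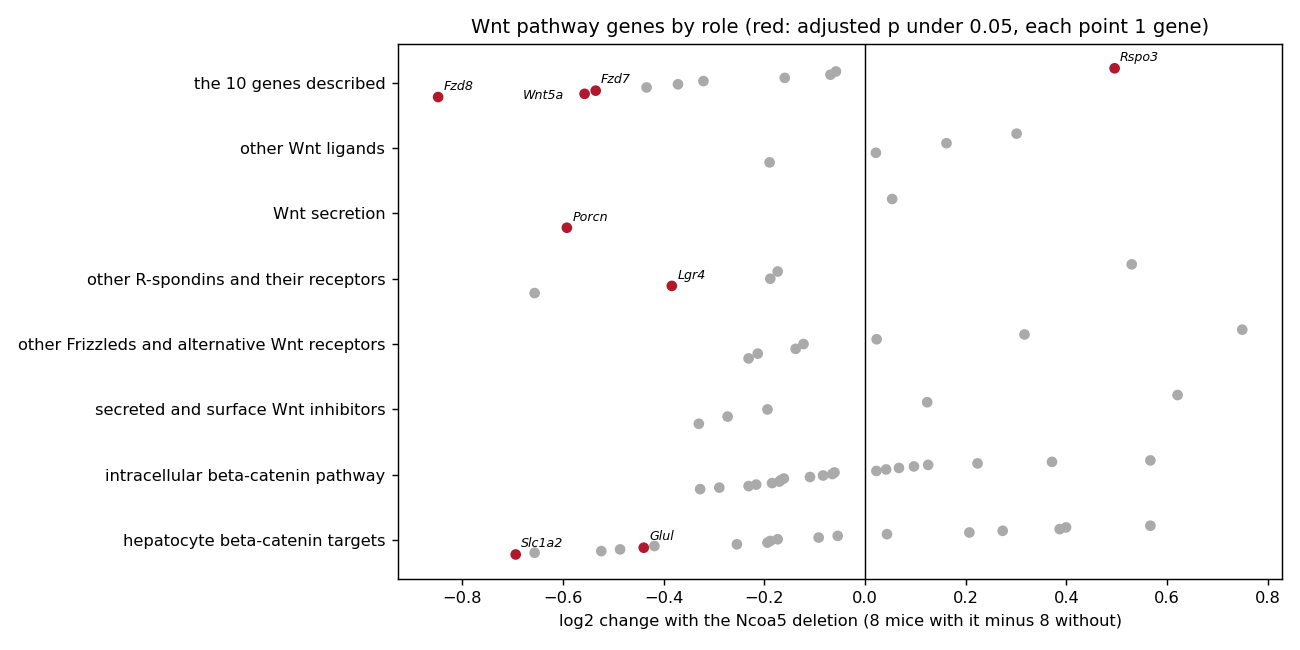
Log2 change with the Ncoa5 deletion (horizontal axis) for the 10 genes and for the other genes of the pathway, grouped by role; each point is 1 gene and red marks an adjusted p under 0.05. Red points are Fzd8, Wnt5a, Fzd7 and Rspo3 among the 10, and Porcn, Lgr4, Slc1a2 and Glul among the others, Rspo3 being the one red point to the right of 0.

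Promoters from the RefSeq table (GRCm38.p6, 250 bases before to 50 after the start) were matched by symbol to 5 of the 10 genes, and to 4 of the 8 pathway genes that passed with the Ncoa5 deletion. These 4 are printed because their genes all fell with that deletion; capitals mark the TCF core CTTTGA or CTTTGT and the CCAAT box, on either strand. They lie at chr1:59481897-59482196 (Fzd7), chr2:102706188-102706487 (Slc1a2), chr1:153899679-153899978 (Glul) and chr2:109917397-109917696 (Lgr4), all on the plus strand. The Fzd7 window ends before the gene start of 59482424 given above, which comes from another annotation.
Fzd7: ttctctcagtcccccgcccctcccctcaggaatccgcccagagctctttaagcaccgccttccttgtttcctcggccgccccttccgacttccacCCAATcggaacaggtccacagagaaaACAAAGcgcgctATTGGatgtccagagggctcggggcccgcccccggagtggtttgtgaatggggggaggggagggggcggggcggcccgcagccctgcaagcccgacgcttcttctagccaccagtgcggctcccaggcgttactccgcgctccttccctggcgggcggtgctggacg
Slc1a2: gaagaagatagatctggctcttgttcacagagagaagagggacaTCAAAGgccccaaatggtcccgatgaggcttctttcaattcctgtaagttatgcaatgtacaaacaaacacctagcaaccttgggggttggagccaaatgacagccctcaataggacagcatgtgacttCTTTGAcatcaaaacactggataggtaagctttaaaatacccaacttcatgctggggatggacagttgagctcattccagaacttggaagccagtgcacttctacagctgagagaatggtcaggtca
Glul: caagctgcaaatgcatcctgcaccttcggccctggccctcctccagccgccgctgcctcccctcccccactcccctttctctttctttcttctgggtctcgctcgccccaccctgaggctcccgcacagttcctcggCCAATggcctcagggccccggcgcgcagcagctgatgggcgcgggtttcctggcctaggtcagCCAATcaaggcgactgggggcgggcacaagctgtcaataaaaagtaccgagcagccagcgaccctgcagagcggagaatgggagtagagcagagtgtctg
Lgr4: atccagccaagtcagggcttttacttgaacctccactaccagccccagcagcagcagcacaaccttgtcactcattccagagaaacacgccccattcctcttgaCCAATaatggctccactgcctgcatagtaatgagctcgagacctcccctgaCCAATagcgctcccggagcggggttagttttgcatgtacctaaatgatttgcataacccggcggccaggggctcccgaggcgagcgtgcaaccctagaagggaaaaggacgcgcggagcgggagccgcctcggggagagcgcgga
The Fzd7 window holds 1 TCF core and 2 CCAAT boxes, that of Slc1a2 holds 2 TCF cores, and those of Glul and Lgr4 hold 2 CCAAT boxes each. The windows of Wnt2, Wnt9b, Fzd4 and Fzd5, which did not pass with the Ncoa5 deletion, are not printed and each hold a CCAAT box. The TCF core is found in 31.2% of all 32851 RefSeq promoters and the CCAAT box in 37.4%, so the matches describe these windows only.

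Markers of other cell types were read beside these genes, against the 7.89% of all tested genes that passed with the Ncoa5 deletion. With the Ncoa5 deletion none of 15 sinusoidal endothelium markers passed, although 15 of 15 had a positive change (median 0.10), and their summed normalized counts ranged over 12914 to 18892 in double heterozygotes, 11503 to 17541 in Ncoa5+/-, 12218 to 15197 in Tip30+/- and 10084 to 20462 in wild type. Of 13 stellate cell markers Col1a1, Hand2 and Col3a1 rose, the sums ranging over 7562 to 10487, 6632 to 11530, 7689 to 8747 and 7380 to 8998 in the same order. Of 10 lymphocyte markers Cd8a, Nkg7, Cd3g and Cd3e rose, with sums of 399 to 562, 444 to 605, 203 to 409 and 151 to 505. Of 7 cholangiocyte markers Spp1 rose, with sums of 1241 to 2401, 1246 to 1829, 810 to 1847 and 695 to 1084, and none of 11 macrophage markers passed, with sums of 8611 to 16546, 10801 to 20352, 9629 to 12285 and 4995 to 11894. Positive changes were seen for 8 of 13 stellate cell (median 0.19), 10 of 10 lymphocyte (0.60), 7 of 7 cholangiocyte (0.66) and 10 of 11 macrophage markers (0.38). Among the lymphocyte markers Ms4a1 was at 0 in some libraries. None of 8 hepatocyte markers passed; 6 of 8 had a negative change (median -0.28), and their sums ranged over 2.16e+06 to 2.78e+06 in double heterozygotes, below the 2.83e+06 to 3.30e+06 of Tip30+/- livers, with 2.25e+06 to 3.00e+06 in Ncoa5+/- and 2.24e+06 to 3.34e+06 in wild type. Mitochondrial genes took 3.60% to 5.50% of counts in double heterozygotes and 3.42% to 5.59% in Ncoa5+/- livers, against 4.96% to 5.80% in Tip30+/- and 5.04% to 5.65% in wild type. Some marker calls for the Ncoa5 deletion moved when the 4 livers with low Zhx2 were excluded. Cd68, a macrophage marker, and Ptprc, a lymphocyte marker, then passed as higher, while Hand2, Cd3g and Cd3e no longer passed. Col1a1, Col3a1, Spp1, Cd8a and Nkg7 still passed, and no endothelium or hepatocyte marker did. Medians were then 0.38 for endothelium, 0.23 for stellate cell, 0.68 for macrophage, 0.71 for cholangiocyte, 0.82 for lymphocyte and -0.21 for hepatocyte markers. The part of these cells and of RNA quality in the changes of Rspo3, Wnt5a, Fzd7 and Fzd8 was not tested.

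Over the 16 livers, the genes most like each of the 10 by Pearson's r on log2 values were found as a description, since all share the libraries and the genotypes. For Wnt5a they were Abtb2 (0.86), Pus7 (0.86) and Rrp15 (0.85), with 0.27, 0.62 and 0.34 after each genotype's mean was taken out. For Rspo3 they were A930001C03Rik, Gm45674 and Bax (0.87 each), with 0.42, 0.50 and 0.25 within genotypes. Those of Fzd8 were Sh3bp5, Rap1gds1 and Dnaja3 (0.91 each), at 0.80, 0.77 and 0.73 within genotypes, and those of Fzd7 were Adgra3 (0.90), Erc1 (0.89) and Bcr (0.89), at 0.76, 0.80 and 0.79. For the genes that did not pass, the most alike were Dclk3 for Fzd4 (0.90), Kdm3b for Fzd5 (0.88), Avpr1a for Lrp5 (0.91), Ndfip2 for Lrp6 (0.94), Gm5644 for Wnt2 (0.85) and Ccbe1 for Wnt9b (0.80).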

How the data were processed

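Per the labels, the deposited values are a signal: the authors scaled each library's gene counts by its DESeq2 size factor. The submitters' processing notes name Trimmomatic 0.36, STAR 2.6.0c, DESeq2 1.28.1 and the build GRCm38; the gene counter and the annotation release were not given in the sources used here. No strand marking is stated, so overlapping opposite-strand genes are uncertain. Positions come from GENCODE M21. Values were whole multiples of a step per library, which gave whole reads for the count tests.

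The members and gene lists were chosen with earlier results of these data known. The 15263 genes averaging 10 or more normalized counts were tested with limma 3.58.1 (R 4.3.3; trend, robust) on log2 of the value plus 1, with 4 group means over 16 libraries, 2-sided, adjusted by Benjamini-Hochberg over all genes within each of 8 comparisons. Named are the 10 genes, those of the other lists that passed and the most alike genes. Axin2 and Ms4a1 are also named and did not pass. The chain was tested on simulated data. Alternatives were edgeR 4.0.16 and DESeq2 1.42.0 on recovered reads, pseudocounts of 0.5 and 5, no filter or one at 50, TMM and upper-quartile scaling, the 2 compared groups alone, leaving out each mouse in turn, and a covariate for mouse tags under 4300. Leaving out the 4 livers low in Zhx2 was chosen after seeing the data, as was refitting the pathway and marker lists that way.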

Additional observations from a re-analysis of the deposited data

Results flagged for a closer look

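Wild type 1 stood apart from its group for Fzd4, with 1652 normalized counts against 881 to 1002 in the other 3 wild-type mice. Ncoa5+/-Tip30+/- 1 stood apart for Fzd8, with 1071 normalized counts against 705 to 761 in the other 3 double heterozygotes. Both were flagged because the gap to the nearest mouse took up most of the range of the group (Dixon's criterion), and 64 groups were examined. Chance flags about 1 in 20 groups.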

How the results depend on the processing

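No paired analysis was possible because the labels give each mouse its own tag and no replicate number shared between genotypes. No gene of the 10 changed direction in a called comparison under any alternative. DESeq2 called 1 of the 10 genes, Wnt5a, in Ncoa5+/- against wild type and 1, Wnt5a, in Tip30+/- against wild type, where limma called none. With the 2 groups alone 1 gene, Wnt5a, passed in double heterozygotes against wild type in place of 3, and with no filter 1, Fzd8, passed against Tip30+/- in place of 2. Without the 4 livers low in Zhx2 the Ncoa5 deletion gave 1 gene, Fzd8, in place of 4, and the Tip30 deletion gave 0 in place of 1; that fit has 12 libraries. Leaving out each mouse gave 1 to 3 genes in double heterozygotes against wild type, 0 to 3 against Tip30+/-, 4 to 5 for the Ncoa5 deletion, 1 to 1 for the Tip30 deletion, and 0 to 0 in the other 4 comparisons. Wnt5a passed in double heterozygotes against wild type under 19 of 19 alternatives. Over all genes, DESeq2 called 257, 43, 1044, 32, 1118, 1803 and 246 genes where limma called 85, 2, 407, 3, 469, 1205 and 20, in Ncoa5+/-, Tip30+/- and double against wild type, double against Ncoa5+/- and Tip30+/-, and the Ncoa5 and Tip30 deletions. The mouse tag covariate gave 98, 2, 697, 4, 1344, 1937 and 51, the 2 groups alone 56, 3, 107, 9 and 571 in the first 5, and without the 4 livers low in Zhx2 limma called 29, 6, 121, 1, 420, 602 and 5. The causes were not tested. Wnt9b had the lowest mean of the 10 genes, 27.7 normalized counts.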
